A study of Mus musculus with 18 samples.

Results

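The genes described here are 32 p53 target genes, a list that includes the p53 gene Trp53 itself, followed in mouse epidermis after ultraviolet B (UVB). They were taken by symbol from a list of genes of cell cycle arrest, apoptosis, feedback and metabolism, and all 32 were found among the 56246 genes of the count table and among the 18910 genes with enough counts to be tested. RNA sequencing of scraped dorsal epidermis gave 18 libraries from 10-week-old male mice, 10 from skin shaved 48 h before 180 mJ/cm2 of UVB and taken 24 h after it, and 8 from skin without UVB (noTx). The sources used here give neither shaving nor a harvest time for noTx samples. If these differed, their effects cannot be told apart from that of UVB. The mice lacking osteopontin (OPN), an extracellular phosphoprotein, are called OPN-null, and K14-OPN mice are OPN-null mice with a transgene that makes OPN from the keratin 14 promoter, active in basal keratinocytes, so both of these genotypes lack the endogenous gene. The groups were K14-OPN UVB (n = 3) and K14-OPN noTx (n = 3), wild type (WT) UVB (n = 3) and WT noTx (n = 2), and OPN-null UVB (n = 4) and OPN-null noTx (n = 3). Nothing in the labels ties each sample to its own animal, so every p-value rests on the variation among these samples, which may be partly technical.

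p53 is a transcription factor that is held low by the ubiquitin ligase Mdm2 and accumulates when DNA is damaged. It then binds a response element made of paired half-sites and raises genes that stop the cell cycle, repair or tolerate damage, or commit the cell to apoptosis, together with inhibitors that restrain p53 again. In epidermis UVB forms pyrimidine dimers in DNA, and the p53 response of keratinocytes to them includes the apoptotic "sunburn cells" of irradiated skin.

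Libraries held between 3696865 and 26068614 reads in genes. All 6 basal and all 6 suprabasal keratinocyte markers had counts in every group, and so had all 6 dermal fibroblast and all 6 leukocyte markers. The libraries were of 2 kinds, which no label mentions. In 6 libraries, 1 in each group, the small nuclear RNA gene Rn7sk had more counts than Lars2, and in the other 12 Lars2 had more. These are called 7SK-rich and Lars2-rich, and between these kinds 9 of the 32 genes passed in edgeR, with 6 at higher and 3 at lower levels in 7SK-rich libraries, where 41.9% of all genes tested passed, 26.2% higher and 15.7% lower. Of the libraries without UVB, WT 10 and K14-OPN 11 were high in hair shaft keratins and in OPN-null 9 the 10 most abundant genes took 84.3% of counts, so counts of genes are also given without these 3.

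Promoter sequence was matched for 26 of the 32 genes, from 250 bases before to 50 bases after each start (RefSeq, GRCm38.p6). A paired p53 site was sought as consensus p53 half-sites with a gap of up to 13 bases, up to 2 mismatches in all and the C and G of each half-site's core kept; the half-site consensus is palindromic, so both strands were searched at once. Such a pair was found in 7 of the 26 genes (26.9%), against 4.71% of 27018 genes with a promoter in the same table, and an exact half-site in 46.2% of the 26, against 9.56%. A match describes letters in this window and was not tested as a binding site. The stretches of 4 genes are shown, 3 that rose after UVB by the tests below and Sesn1, which fell, read 5′ to 3′ on the strand of the gene with the paired site in capitals.
Ccng1: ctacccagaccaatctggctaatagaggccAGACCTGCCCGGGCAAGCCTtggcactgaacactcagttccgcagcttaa
Cdkn1a: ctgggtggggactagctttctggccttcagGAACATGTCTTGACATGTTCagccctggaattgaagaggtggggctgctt
Bax: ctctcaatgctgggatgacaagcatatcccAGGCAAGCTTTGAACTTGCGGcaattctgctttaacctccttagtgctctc
Sesn1: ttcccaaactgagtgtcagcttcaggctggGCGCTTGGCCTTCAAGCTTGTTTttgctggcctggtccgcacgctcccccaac
The Ccng1 stretch (chr11:40755432-40755511, minus strand) had its site 195 bases before the start, with no gap and 1 mismatch. The Cdkn1a stretch (chr17:29090898-29090977, plus strand) had its site 51 bases before the upstream start, also with no gap and 1 mismatch. The window of another Cdkn1a start, further downstream (chr17:29093519-29093818), held no paired site and no exact half-site. Bax (chr7:45467049-45467129, minus strand) had a gap of 1 base and Sesn1 (chr10:41887223-41887305, plus strand, at an alternative start) a gap of 3 bases, each with 2 mismatches. Sites were also found in Gtse1, Ckap2 and Gadd45a. Of these 7 genes, 5 rose, Sesn1 fell and Gadd45a did not pass the test of the mean UVB response given next.

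Averaged over the 3 genotypes, most p53 targets were higher after UVB. Of the 32 genes 22 rose and 1, Sesn1, fell (edgeR quasi-likelihood test, Benjamini-Hochberg adjusted p below 0.05), where 21.4% of all genes tested were called, 10% higher and 11.4% lower. The median log2 fold change was 1.43 over the 32 genes and -0.11 over all genes tested. In all 10 UVB libraries 13 of the 32 genes were above all 8 noTx libraries, against 2.51% of all genes. These were Trp53, Mdm2, Ccng1, Trp53inp1, Cdkn1a, Plk2, Gtse1, Tnfrsf10b, Eda2r, Bax, Pmaip1, Phlda3 and Ephx1. An exact two-sided permutation of the UVB labels within genotypes (7000 assignments, smallest possible p = 0.000143) called 23 of the 32 genes after adjustment over all genes, 22 higher and 1 lower, and 23.7% of all genes. Unlike edgeR, it called Pidd1 (permutation adjusted p = 0.0361) and did not call Aen (permutation adjusted p = 0.0705). Without the 3 noTx libraries named above 16 rose and 1 fell, where 18.4% of all genes were called, and in Lars2-rich libraries alone 20 rose and 1 fell, where 21.3% were called.

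**Figure D1:**
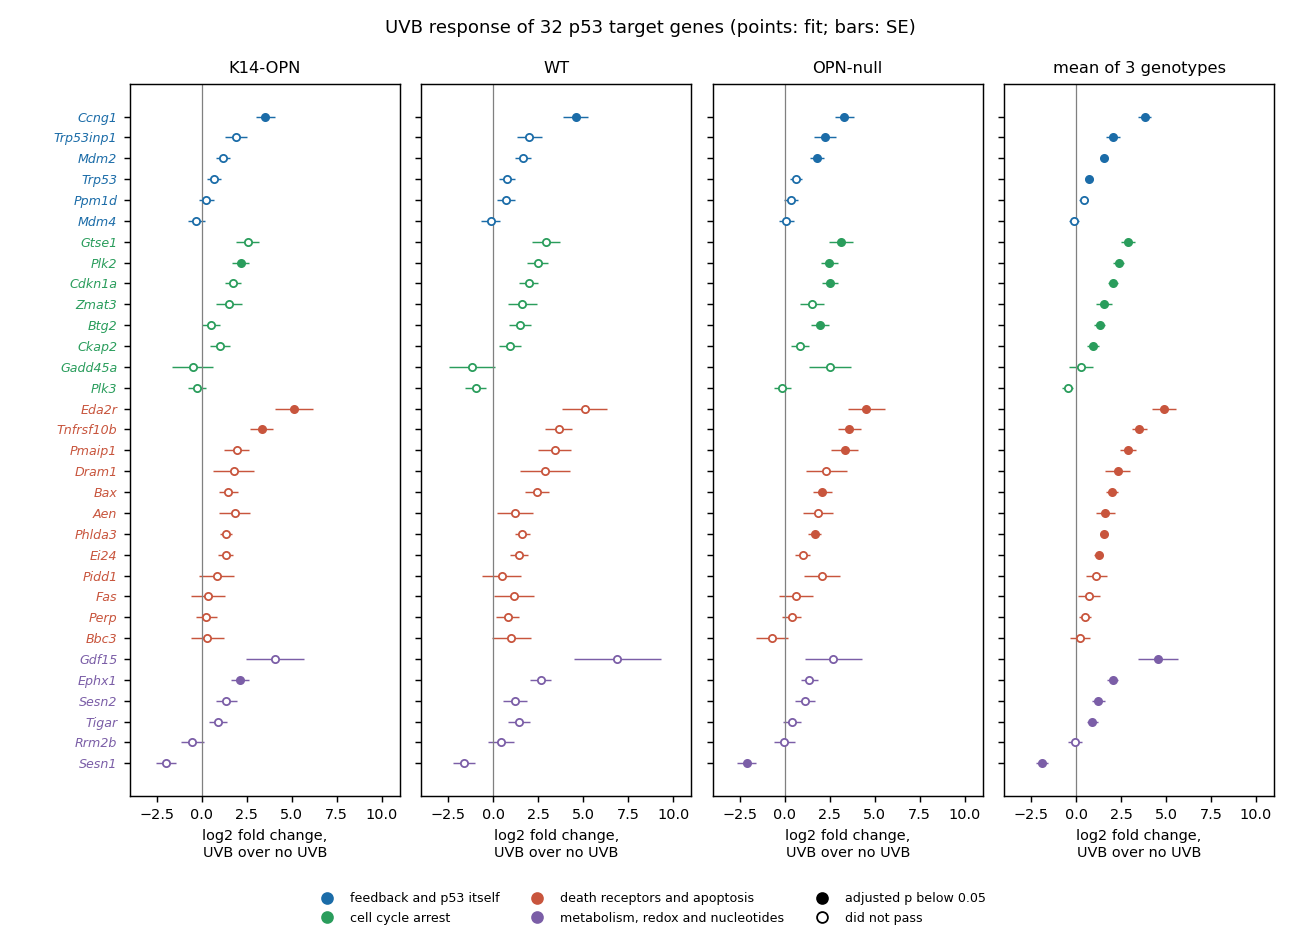
Log2 fold change of UVB over noTx for each of the 32 genes (rows, coloured by role) in K14-OPN, WT, OPN-null and the mean of the 3 genotypes. Points are fitted values, bars are standard errors, and filled points passed at an adjusted p below 0.05; in the mean, 22 filled points lie right of 0 and 1, Sesn1, left of it.

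Among p53 and its feedback genes 4 of 6 rose. Trp53 mRNA was the smallest of these changes. It was at 25.4, 31.7 and 35.4 CPM (counts scaled to a common library size) in K14-OPN UVB, against 13.2, 20.8 and 23.7 CPM in K14-OPN noTx. In WT UVB it was at 27.9, 31.7 and 43.4 CPM, against 15.7 and 24.7 CPM in WT noTx, and in OPN-null UVB at 24.8, 27.7, 29.0 and 29.2 CPM, against 10.7, 18.1 and 24.6 CPM in OPN-null noTx. The groups did not overlap in any genotype, though the gap was narrow in each. The mean log2 fold change of Trp53 was 0.69 ± 0.22 (SE; edgeR adjusted p = 0.036), and it passed in 16 of 27 alternative analyses.

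Ccng1 (chr11:40748552-40755311), which encodes cyclin G1, a p53 target that recruits a phosphatase to Mdm2, had the smallest p of the 32 genes. It stood at 193, 203 and 248 CPM in K14-OPN UVB, against 16.6, 19.0 and 20.3 CPM in K14-OPN noTx. WT UVB libraries had 178, 266 and 315 CPM, against 4.85 and 15.9 CPM in WT noTx. OPN-null UVB libraries had 136, 181, 190.1 and 254 CPM, against 6.16, 25.6 and 25.9 CPM in OPN-null noTx. Every irradiated library was several times above every unirradiated one. The mean log2 fold change was 3.80 ± 0.35 (edgeR adjusted p = 9.23e-06), and Ccng1 was the only one of the 32 genes called in all 3 genotypes, at 3.53 ± 0.55 in K14-OPN, 4.57 ± 0.69 in WT and 3.30 ± 0.53 in OPN-null.

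Mdm2 (chr10:117688875-117710758), the ubiquitin ligase that marks p53 for degradation, rose by 1.53 ± 0.24 in the mean (edgeR adjusted p = 0.000379). It was at 118, 140.1 and 166 CPM in K14-OPN UVB, against 43.2, 49.4 and 97.2 CPM in K14-OPN noTx. WT UVB had 139, 160.0 and 175 CPM, against 47.0 and 53 CPM in WT noTx, and OPN-null UVB had 137, 144, 164 and 197 CPM, against 34.9, 37.8 and 67.0 CPM in OPN-null noTx. Of the unirradiated libraries K14-OPN 1 was the highest, yet still under every irradiated library. Trp53inp1, a nuclear protein that promotes p53 phosphorylation, ranged from 77.5 to 345 CPM over UVB libraries (median 166), against 19.0 to 76.9 CPM over noTx libraries (median 46.1), with a mean log2 fold change of 2.04 ± 0.38 (edgeR adjusted p = 0.00139). The other inhibitors did not pass. Ppm1d, a phosphatase that acts on p53 and its kinases, was at 0.43 ± 0.25 (edgeR adjusted p = 0.247) and Mdm4, which binds p53 and blocks its activity, at -0.12 ± 0.27 (edgeR adjusted p = 0.791). Trp53 and Mdm4 each have 1 annotated pseudogene, with which reads could be shared.

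**Figure D2:**
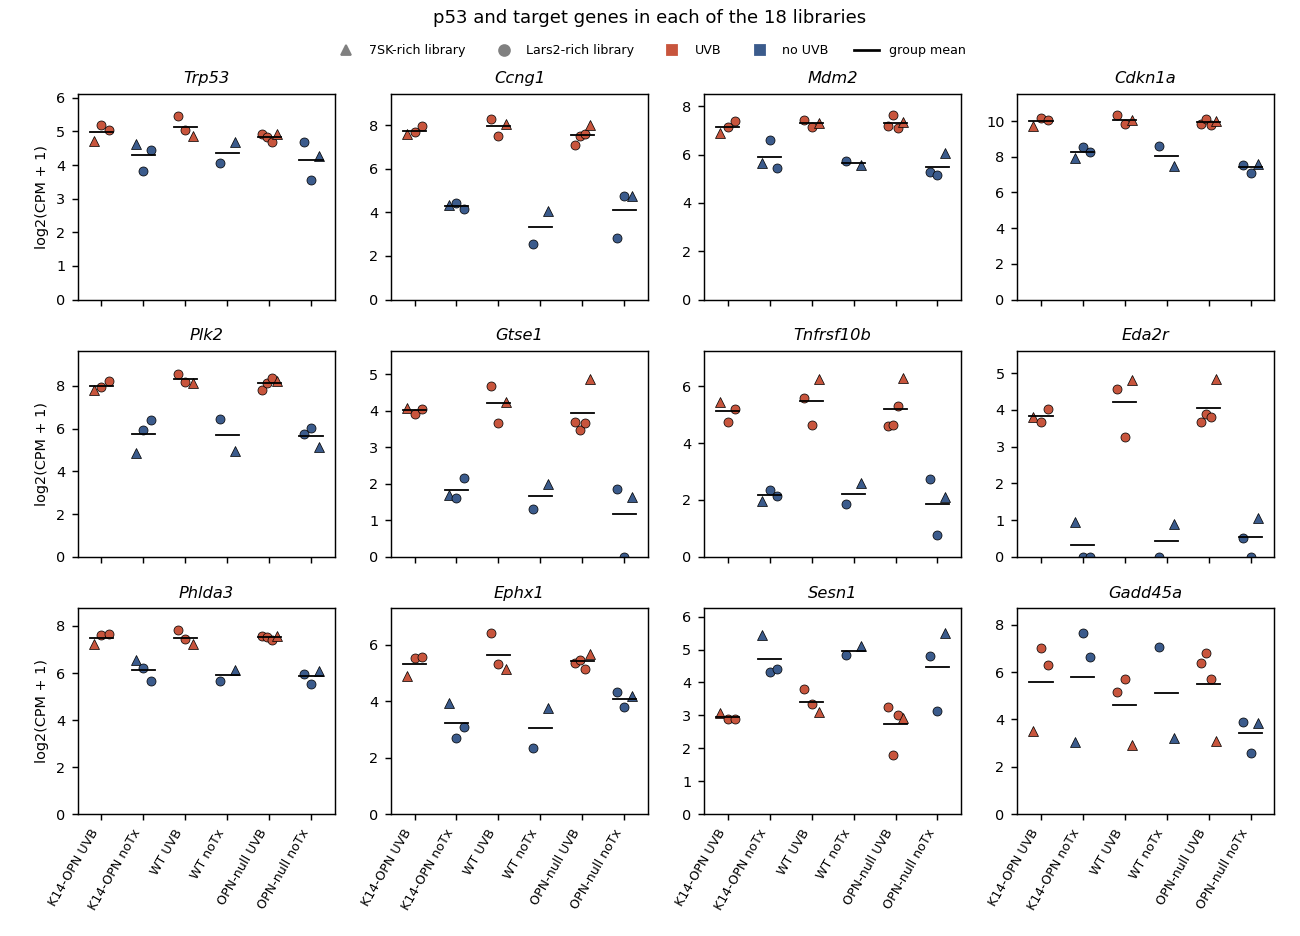
Log2(CPM + 1) of 12 genes in each of the 18 libraries, by group, with UVB in red and noTx in blue, triangles for 7SK-rich and circles for Lars2-rich libraries, and a bar at the group mean. Ccng1, Cdkn1a, Plk2, Tnfrsf10b and Eda2r separate UVB from noTx completely, Sesn1 runs the other way, and Gadd45a is lowest in the 7SK-rich library of every group except OPN-null noTx.

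Of 8 cell cycle arrest genes 6 rose. Cdkn1a (chr17:29090976-29100727) encodes p21, the cyclin-dependent kinase inhibitor through which p53 arrests cells before S phase. It reached 845, 1075 and 1138 CPM in K14-OPN UVB, against 246, 312 and 379 CPM in K14-OPN noTx. In WT UVB it reached 922, 1080.0 and 1287 CPM, against 179 and 386 CPM in WT noTx, and in OPN-null UVB 884, 918, 1014 and 1090.0 CPM, against 135, 182 and 195 CPM in OPN-null noTx. Every irradiated library was above every unirradiated one in all 3 genotypes. The mean log2 fold change was 2.06 ± 0.28 (edgeR adjusted p = 0.000154). An annotated gene on the opposite strand shares 273 exon bases with Cdkn1a, and the use of strand in counting is not given in the sources used here.

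Plk2 (chr13:110395046-110400844), a polo-like kinase of the S-phase checkpoint, was at 222 to 380 CPM over UVB libraries (median 287), against 27.7 to 85.9 CPM over noTx libraries (median 56.5), and rose by 2.36 ± 0.30 (edgeR adjusted p = 9.46e-05). Gtse1, which in human cells moves p53 out of the nucleus, was at 10.2 to 28.5 CPM over UVB libraries (median 14.8), against 0 to 3.44 CPM over noTx libraries (median 2.19), and rose by 2.88 ± 0.41 (edgeR adjusted p = 0.000219). No library of one condition reached into the range of the other for either gene. Btg2, an antiproliferative factor, rose by 1.32 ± 0.32 and Zmat3, an RNA-binding zinc finger protein, by 1.55 ± 0.42 (edgeR adjusted p = 0.00737 and 0.0162). For Btg2, K14-OPN noTx library 1 had 318 CPM, above every UVB library (highest 292 CPM). The log2 fold change of Btg2 in K14-OPN was 0.50 ± 0.52 (edgeR adjusted p = 0.737). Ckap2, a spindle protein, was at the threshold (0.93 ± 0.32, edgeR adjusted p = 0.05) and passed in 5 of 27 alternatives. Plk3, another polo-like kinase, was at -0.46 ± 0.30 (edgeR adjusted p = 0.301).

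Gadd45a, a growth arrest gene inducible by DNA damage, did not pass and was chosen for its spread after its values were seen. K14-OPN UVB libraries had 10.4, 77.6 and 127 CPM, against 7.22, 99.5 and 199 CPM in K14-OPN noTx. WT UVB libraries had 6.60, 34.5 and 50.9 CPM, against 8.20 and 132 CPM in WT noTx. OPN-null UVB libraries had 7.65, 51.0, 82.2 and 112 CPM, against 4.99, 13.2 and 14.1 CPM in OPN-null noTx. The lowest value of each irradiated group was its 7SK-rich library, and the groups overlapped in all 3 genotypes. Between library kinds the log2 fold change of Gadd45a was -2.81 in 7SK-rich over Lars2-rich libraries (edgeR adjusted p = 0.000751). Its UVB log2 fold change was -0.51 ± 1.13 in K14-OPN, -1.19 ± 1.25 in WT and 2.52 ± 1.18 in OPN-null, with no call.

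Among 12 genes of death receptors and apoptosis 8 rose in the mean of the genotypes. All 12 fold changes were positive there, where the median log2 fold change of all genes tested was -0.11. In OPN-null the log2 fold change of Bbc3 was negative (-0.70 ± 0.88). Tnfrsf10b (chr14:69767472-69784411), the mouse receptor for the death ligand TRAIL, was at 25.6, 36.0 and 42.8 CPM in K14-OPN UVB, against 2.90, 3.44 and 4.16 CPM in K14-OPN noTx. WT UVB had 23.8, 46.8 and 75.5 CPM, against 2.61 and 5.02 CPM in WT noTx, and OPN-null UVB had 23.1, 23.6, 38.4 and 77.6 CPM, against 0.712, 3.26 and 5.72 CPM in OPN-null noTx. The receptor was low in every unirradiated library, and its mean log2 fold change was 3.52 ± 0.40 (edgeR adjusted p = 4.97e-05). Eda2r (chrX:97333840-97377216), the receptor for the A2 form of ectodysplasin, was nearly silent without UVB. It was at 11.7, 13.1 and 15.2 CPM in K14-OPN UVB, against 0, 0 and 0.92 CPM in K14-OPN noTx. WT UVB had 8.50, 22.5 and 27.0 CPM, against 0 and 0.844 CPM in WT noTx, and OPN-null UVB had 11.7, 13.1, 13.7 and 27.8 CPM, against 0, 0.44 and 1.09 CPM in OPN-null noTx. No unirradiated library came near an irradiated one, and the mean log2 fold change was 4.91 ± 0.67 (edgeR adjusted p = 0.000155). Counts of Eda2r without UVB were 0 to 22 per library, and its mean log2 fold change ran from 3.24 to 8.69 over 27 alternatives.

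Phlda3, which blocks the kinase Akt at the membrane, was at 149 to 228 CPM over UVB libraries (median 186), against 45.6 to 92.5 CPM over noTx libraries (median 63.7), and rose by 1.53 ± 0.21 (edgeR adjusted p = 0.000178). Calls differed among the mitochondrial death genes, which were not tested against each other. Pmaip1 (Noxa) rose by 2.89 ± 0.46 and Bax by 1.99 ± 0.33 (edgeR adjusted p = 0.000475 and 0.000657), but Bbc3 (Puma) was at 0.20 ± 0.55 (edgeR adjusted p = 0.835), with 1.16 to 6.18 CPM over UVB libraries, against 0.313 to 9.97 CPM over noTx libraries. Bbc3 counts were low, and the ends of its noTx range were 3 counts in K14-OPN 11 and 14 counts in OPN-null 9. Bax shares 192 exon bases with another annotated gene on its strand. Ei24, an endoplasmic reticulum protein of autophagy, rose by 1.25 ± 0.26, the nuclease gene Aen by 1.63 ± 0.53 and the lysosomal gene Dram1 by 2.31 ± 0.71 (edgeR adjusted p = 0.00277, 0.0367 and 0.0283). Aen passed in 15 of 27 alternatives. Dram1 had 0 counts in K14-OPN noTx 11, OPN-null noTx 9 and WT noTx 10, and its UVB and noTx ranges overlapped in K14-OPN. Fas, the receptor of Fas ligand, was at 0.71 ± 0.59, Pidd1, the scaffold of the caspase-2 complex, at 1.12 ± 0.59 and Perp, a tetraspan protein of desmosomes, at 0.48 ± 0.34 (edgeR adjusted p = 0.421, 0.191 and 0.343).

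In the group of metabolism, redox and nucleotide genes 4 of 6 rose and 1 fell. Ephx1 (chr1:180976210-181020904), microsomal epoxide hydrolase, was at 28.6, 45.3 and 45.8 CPM in K14-OPN UVB, against 5.46, 7.51 and 14.4 CPM in K14-OPN noTx. WT UVB had 34.6, 38.9 and 84.5 CPM, against 4.11 and 12.4 CPM in WT noTx, and OPN-null UVB had 34.3, 40.3, 43.4 and 49.8 CPM, against 12.8, 17.0 and 18.9 CPM in OPN-null noTx. The groups were apart in each genotype, and the mean rise was 2.03 ± 0.30 (edgeR adjusted p = 0.000264).

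The sestrins, which restrain mTORC1 signalling under stress, moved in opposite directions. Sesn1 (chr10:41809935-41908424) was at 6.35, 6.49 and 7.41 CPM in K14-OPN UVB, against 19.0, 20.03 and 42.1 CPM in K14-OPN noTx. WT UVB had 7.51, 9.11 and 12.9 CPM, against 27.2 and 33.8 CPM in WT noTx, and OPN-null UVB had 2.46, 6.62, 7.03 and 8.62 CPM, against 7.83, 26.8 and 44.1 CPM in OPN-null noTx. Irradiated libraries were below unirradiated ones in K14-OPN and WT, and in OPN-null the lowest noTx library, number 9, lay inside the UVB range. The mean log2 fold change of Sesn1 was -1.91 ± 0.33 (edgeR adjusted p = 0.000833), negative in each genotype, while Sesn2 rose by 1.22 ± 0.36 (edgeR adjusted p = 0.0226). Tigar, a phosphatase that lowers glycolytic flux, rose by 0.91 ± 0.31 (edgeR adjusted p = 0.045) and passed in 8 of 27 alternatives, and the ribonucleotide reductase subunit gene Rrm2b was at -0.05 ± 0.38 (edgeR adjusted p = 0.95).

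Gdf15, a secreted stress cytokine of the TGF-beta family, was at the edge of detection. The UVB libraries of K14-OPN held 80 counts together, against 2 in K14-OPN noTx, a ratio of 14.7 after scaling to depth (95% counting interval 3.93 to 123). WT UVB libraries held 37 counts, against 0 in WT noTx, so the level was at least 7.01-fold higher against a floor of 3 counts over the group. OPN-null UVB libraries held 39 counts, against 3 in OPN-null noTx, a ratio of 5.99 (1.91 to 30.3). These intervals and the floor cover counting error only, because counts were pooled over the libraries of a group. They leave out variation between libraries, and reads were not collapsed to molecules by identifiers. OPN-null UVB libraries held 0, 5, 9 and 25 counts, so UVB and noTx overlapped in that genotype. Gdf15 passed in the mean of the genotypes (edgeR adjusted p = 0.00875), and its fitted fold change depends on the prior count.

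Levels of different genes were compared as CPM per kb of exon. Perp was the most abundant of the 32, with a median of 1806 CPM per kb over the 10 UVB libraries, against 1141 CPM per kb over the 8 noTx libraries, and Cdkn1a followed at 294 CPM per kb with UVB, against 62.1 CPM per kb in noTx. After UVB the next levels were those of Phlda3 (119 CPM per kb), Btg2 (68.5), Plk2 (63.9), Plk3 (59.4) and Ccng1 (56.4), and from Phlda3 on the ranges of neighbours in this order overlapped. Ccng1 stood at rank 7 of 32 over UVB libraries, against rank 16 over noTx libraries. Tnfrsf10b and Eda2r remained low after UVB, at 6.82 and 2.27 CPM per kb, against 0.615 and 0.0373 CPM per kb in noTx.

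**Figure D3:**
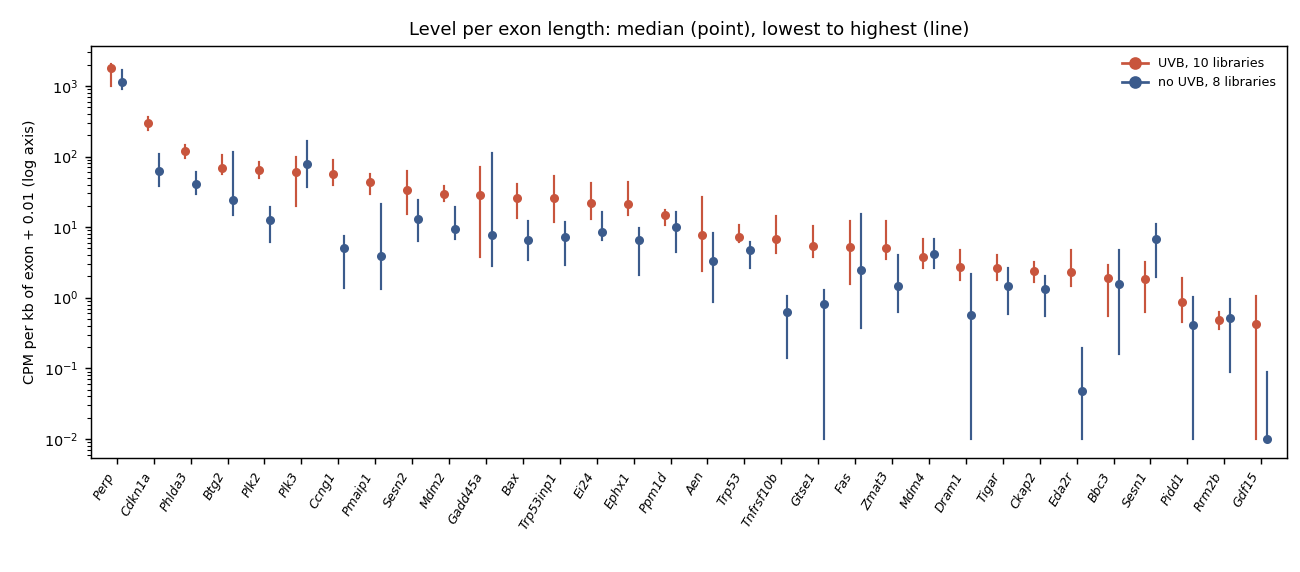
CPM per kb of exon for each of the 32 genes on a log axis (0.01 added), with the median as a point and the lowest to highest library as a line, UVB (10 libraries) left of noTx (8 libraries). Perp and Cdkn1a lead after UVB, and Eda2r and Tnfrsf10b stay far below Cdkn1a after UVB.

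Within single genotypes fewer of the 32 genes passed. In K14-OPN 5 rose and none fell (Ccng1, Plk2, Tnfrsf10b, Eda2r and Ephx1), where 1.06% of all genes were called, 0.508% higher and 0.55% lower. In WT 1 rose, Ccng1, where 0.0952% were called, 0.0635% higher and 0.0317% lower. In OPN-null 12 rose and Sesn1 fell, where 3.41% were called, 1.85% higher and 1.55% lower. The 32 genes had a median log2 fold change of 1.33 in K14-OPN, 1.47 in WT and 1.72 in OPN-null, against -0.18, -0.15 and 0.02 over all genes tested, and 27, 28 and 28 of the 32 were positive. UVB libraries lay wholly above noTx libraries for 20 of the 32 genes in K14-OPN, 23 in WT and 16 in OPN-null, where all genes did so in 11.5%, 14.8% and 11.3%. The comparisons in the 3 genotypes use separate libraries but share 1 estimate of spread per gene. For the counts below with a library left out, the share of all genes called is not given. The call in WT was lost without any 1 of the 5 WT libraries and without K14-OPN UVB 2, K14-OPN UVB 3 or OPN-null UVB 14 (0 genes each), and 2, 4 and 6 genes were called there without K14-OPN noTx 2, 1 and 11, and 2 without OPN-null noTx 9. In K14-OPN 1 gene was called without K14-OPN UVB 1, 2 or 3, 2 without K14-OPN noTx 11, and 3 without OPN-null UVB 13, OPN-null UVB 15, OPN-null noTx 8, WT UVB 7 or WT UVB 8, and in OPN-null 5, 6, 7 and 7 were called without OPN-null noTx 8, OPN-null noTx 9, OPN-null UVB 14 and OPN-null UVB 15.

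With library kind as a term in the model, 15 of the 32 genes rose and 1 fell in K14-OPN, where 7.71% of all genes were called, 3.28% higher and 4.43% lower. In WT 12 rose, where 3.73% were called, 1.99% higher and 1.73% lower. In OPN-null 16 rose and 1 fell, where 13.7% were called, 7.22% higher and 6.5% lower. The 12 genes called in all 3 genotypes in that fit were Mdm2, Ccng1, Cdkn1a, Plk2, Gtse1, Zmat3, Tnfrsf10b, Eda2r, Bax, Pmaip1, Phlda3 and Ephx1. Within each genotype and kind the difference of UVB minus noTx in mean log2 CPM was positive for 21 of the 32 genes in all 6 pairs and negative in all 6 only for Sesn1, where 17.8% of all genes tested were positive and 11.7% negative in all 6. Per pair 25 to 30 of the 32 genes were positive, against 45.6% to 62% of all genes. Ccng1 ranged from 3.28 to 5.57 over these pairs, Cdkn1a from 1.498 to 2.62, Tnfrsf10b from 2.96 to 4.51 and Sesn1 from -2.71 to -1.32. Several of the pairs set 1 library against 1 and have no test.

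**Figure D4:**
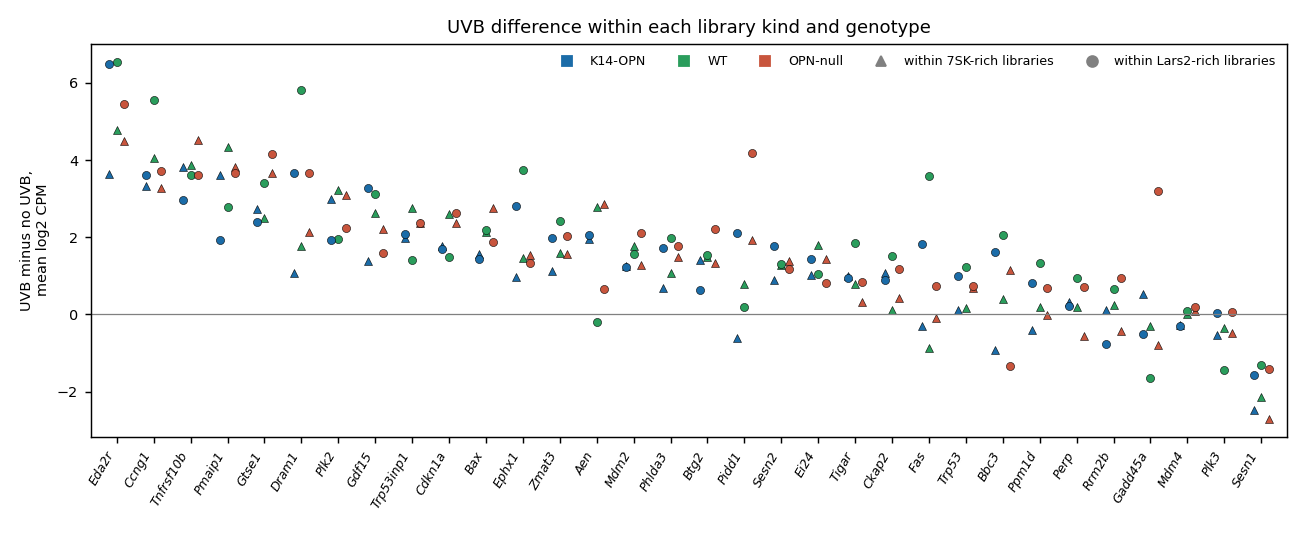
UVB minus noTx in mean log2 CPM for each of the 32 genes, ordered by their mean, within 7SK-rich (triangles) and Lars2-rich (circles) libraries of K14-OPN, WT and OPN-null. Points of 21 genes all lie above 0 and those of Sesn1 all lie below.

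No difference between genotypes in the UVB response was called for any of the 32 genes. The response in K14-OPN minus that in OPN-null had 0 genes called (edgeR; 0 at an unadjusted p below 0.05, and 0 called with DESeq2), and the response in WT minus that in OPN-null also 0 (1 at an unadjusted p below 0.05, Gadd45a, and 0 called with DESeq2), where 0% of all genes were called in both. In the planned fit the difference in log2 response of Ccng1 was 0.23 in K14-OPN minus OPN-null (95% interval -1.22 to 1.67) and 1.27 in WT minus OPN-null (-0.29 to 2.83). For Cdkn1a it was -0.81 (-2.08 to 0.46) in K14-OPN minus OPN-null and -0.56 (-1.90 to 0.78) in WT minus OPN-null, and for Mdm2 -0.62 (-1.72 to 0.49) and -0.12 (-1.29 to 1.05) in the same order. Each of these 6 intervals includes 0 and reaches beyond 1 log2 unit in at least 1 direction. With library kind as a term the difference of Ccng1 in WT minus OPN-null was 1.37, with an interval (0.015 to 2.72) that leaves out 0, and it was not called (edgeR unadjusted p = 0.0478, adjusted p = 0.954). In UVB libraries no member was called between K14-OPN and OPN-null or between WT and OPN-null (0 called, 0 at an unadjusted p below 0.05 in both; 0% and 0.00529% of all genes called). With library kind as a term 1 gene had an unadjusted p below 0.05 in each, Mdm4 in K14-OPN over OPN-null and Ei24 in WT over OPN-null, and 0 were called. Among noTx libraries 0 were called in K14-OPN over OPN-null (2 at an unadjusted p below 0.05, Btg2 and Gadd45a) and 0 in WT over OPN-null (0 unadjusted), where 0% of all genes were called in both, and DESeq2 called 0 in each of these 4 comparisons.

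Other genes of the pathway moved less evenly. Of 45 further p53 targets 43 were tested, and in the mean UVB response 14 rose and 2 fell, with a median of 0.63, where 10% of all genes rose and 11.4% fell. Ptp4a3, a protein tyrosine phosphatase, rose by 3.23 ± 0.26, the carbonyl reductase gene Dcxr by 2.72 ± 0.31, the translesion polymerase gene Polk by 2.25 ± 0.28 and the phosphomannomutase gene Pmm1 by 1.80 ± 0.22 (edgeR adjusted p of 9.5e-05 or less). The 2 that fell were Ptpn14 (-1.85 ± 0.45) and Xpc (-0.90 ± 0.28), a damage sensor of nucleotide excision repair. Of 26 regulators of p53, 25 were tested, 2 rose and 6 fell. Ppp1r13b (-2.16 ± 0.32) and Trp53bp2 (-1.30 ± 0.27), which encode the p53-binding proteins ASPP1 and ASPP2, were among those that fell, with the kinase gene Mapk8 (-1.35 ± 0.22) and the ubiquitin ligase gene Trim24 (-1.05 ± 0.25). Of 25 cell cycle genes that p53 is known to repress through p21 and the DREAM complex, 4 rose and none fell (7 at an unadjusted p below 0.05). The 4 were Rrm2 (1.90 ± 0.26), a ribonucleotide reductase subunit, Cdc20 (1.29 ± 0.25), an activator of mitotic ubiquitination, Mcm5 (1.17 ± 0.28), a subunit of the replicative helicase, and Cdk1 (1.05 ± 0.34), the mitotic kinase.

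Markers of other cells moved in the same comparison. In bulk tissue fewer cells of a type and less RNA per cell cannot be told apart. Over UVB libraries the 6 basal keratinocyte markers summed to 7612 to 26650 CPM, against 2018 to 9358 CPM over noTx libraries, and 4 of the 6 rose and 1 fell, Krt15. The 6 dermal fibroblast markers summed to 13.5 to 566 CPM over UVB libraries, against 146 to 4404 CPM over noTx libraries, and 3 of the 6 fell. The 6 hair shaft keratins summed to 2.75 to 49.8 CPM over UVB libraries, against 7.79 to 53950.0 CPM over noTx libraries, and 5 of the 6 fell. Only K14-OPN noTx 11 (53950 CPM) and WT noTx 10 (51520 CPM) were high. Every other noTx library had 105 CPM or less, and their range overlapped that of UVB libraries. Leukocyte markers summed to 222 to 3391 CPM over UVB libraries, against 81.7 to 2465 CPM over noTx libraries, with 1 of 6 higher, S100a8. The highest of these noTx sums was in K14-OPN library 1, and every other noTx library had 289 CPM or less. Suprabasal keratinocyte markers summed to 5641 to 22440.0 CPM over UVB libraries, against 3799 to 27960.0 CPM over noTx libraries, with 0 of 6 called. The 6 markers of endothelium, muscle and melanocytes summed to 2.93 to 12.7 CPM over UVB libraries, against 4.53 to 248 CPM over noTx libraries, and 2 of the 5 tested fell, Dct and Pmel. These noTx sums were highest in K14-OPN 11 (248 CPM), WT 10 (161 CPM) and OPN-null 9 (84.7 CPM), with 17.6 CPM or less in the others. The 5 genes taken as signs of RNA quality (Rn7sk, Lars2, Malat1, mt-Co1 and mt-Nd1) summed to 12710.0 to 89450.0 CPM over UVB libraries (median 26890.0), against 26550.0 to 562300.0 CPM over noTx libraries (median 99530.0), with 0 of 5 called (1 at an unadjusted p below 0.05, Malat1). Over all UVB libraries and over all noTx libraries no marker of these lists was at 0 throughout. With the fibroblast marker mean as a covariate 17 of the 23 called genes still passed in the mean UVB response (16 higher and 1 lower), where 10.2% of all genes were called, and with the basal keratinocyte marker mean 14 did (13 higher and 1 lower), where 16.7% were called. The 9 lost with the basal covariate were Trp53, Btg2, Ckap2, Zmat3, Aen, Dram1, Sesn2, Tigar and Gdf15. In OPN-null no member was called with the fibroblast covariate (13 without it), and the share of all genes called in that fit is not given here. The part of the other lists in the result was not tested.

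**Figure D5:**
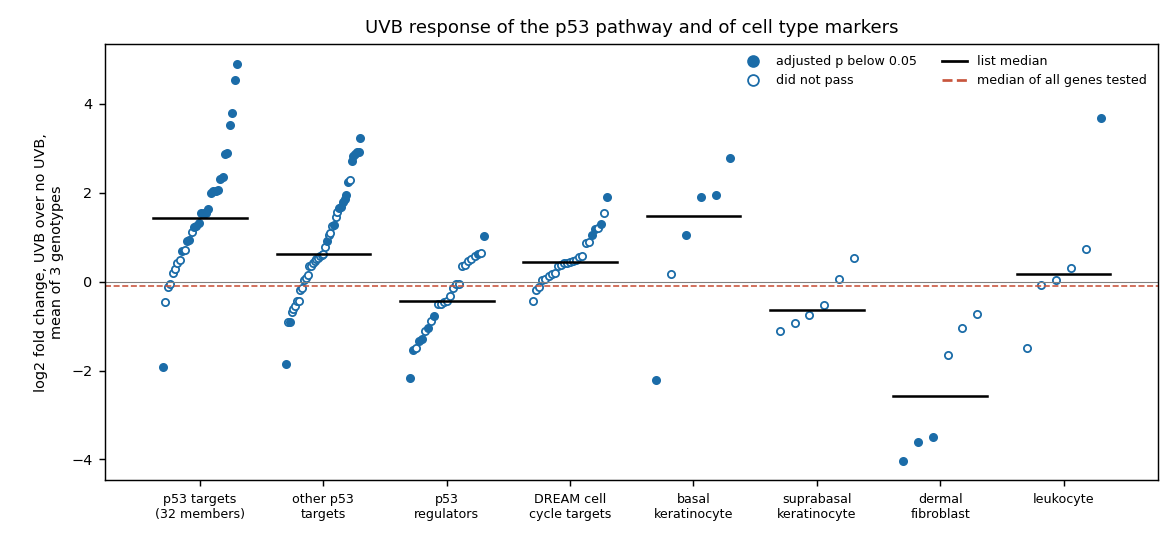
Log2 fold change of UVB over noTx, mean of 3 genotypes, for the 32 p53 targets, 3 further lists of the pathway and 4 lists of cell type markers. Each point is a gene, filled where its adjusted p was below 0.05, black bars are list medians, and the dashed line is the median of all genes tested (-0.11); the 32 targets have a median of 1.43 and the fibroblast markers -2.57.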

How the data were processed

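The authors deposited whole-number counts of reads per gene in 1 table of 18 libraries, not normalized. Per the submitters' processing notes, the tools were HTSeq 0.11.3, STAR 2.7.5a, Trim Galore 0.6.5 and bcl2fastq 2.18.0.12, with build GRCm38 and roles not given in the sources used here, nor the annotation release or the use of strand. Of 56246 gene identifiers 55144 matched a GENCODE M21 symbol, and 5 summary lines were left out (reads in no gene 20.75 to 50.36%). Low genes were removed with filterByExpr (count at least 10, total at least 15), and scaling was by TMM. One edgeR 4.0.16 quasi-likelihood model (R 4.3.3) of 6 group means was fitted to all 18 libraries, with 10 contrasts, and calls were made at a two-sided Benjamini-Hochberg adjusted p below 0.05 over 18910 genes. It was tested on simulated counts. CPM use TMM-scaled sizes, log2 CPM a prior count of 2 and fold changes a prior of 0.125. A replicate pair's counts differed by at least 45.2 times the sampling noise (chi-square per degree of freedom), so all were kept apart. Library kind was read from Rn7sk and Lars2 counts.

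All 32 members are named. Values by library are given for Trp53, Cdkn1a, Mdm2, Ccng1 and up to 3 genes of smallest p in each role list, as values or as a range, and up to 4 called genes of each pathway list are named; Gadd45a was added after its values were seen. The members and lists were chosen with earlier results of these data known. Alternatives were RLE scaling, no filter, DESeq2 1.42.0, compared groups only, library kind, Lars2-rich libraries, leaving out libraries and a replicate block, and, chosen after seeing the data, marker covariates. A paired p53 site was the one with the smallest gap in a promoter.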

Additional observations from a re-analysis of the deposited data

Results flagged for a closer look

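In groups of 4 to 10 libraries, here only the 4 of OPN-null UVB, 3 of 32 genes had 1 library far from the others by Dixon's ratio of gap to range above its 95% critical value, and chance flags about 1 in 20 such groups. Plk3 in OPN-null UVB library 15 had a ratio of 0.951. Gtse1 in OPN-null UVB library 16, the 7SK-rich one, had a ratio of 0.844. Aen in the same library 16 had a ratio of 0.851. Gtse1 rose in the mean UVB response in all 27 alternatives, including the fit without library 16.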

How the results depend on the processing

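Of the 32 genes, 13 passed in the mean UVB response in all 27 alternatives (Mdm2, Ccng1, Trp53inp1, Cdkn1a, Plk2, Gtse1, Tnfrsf10b, Eda2r, Bax, Pmaip1, Phlda3, Sesn1 and Ephx1), and 10 passed in the planned fit but not in all of them. The count of members called in the mean response was 23, and 14 with the basal keratinocyte covariate. In WT it was 1, with 5 when no filter was used, 12 with library kind as a term, 11 with DESeq2, 2 with the basal keratinocyte covariate, and 0 in Lars2-rich libraries, without the 3 noTx libraries that stood apart, or with compared groups only. In OPN-null it was 13, and 0 with the fibroblast covariate. In K14-OPN it was 5, with 16 with library kind, 10 in Lars2-rich libraries, 12 with DESeq2, 0 with compared groups only and 3 with either covariate. In noTx libraries K14-OPN over OPN-null had 0, and 1 with no filter or in Lars2-rich libraries. Of these settings, shares of all genes are given above for library kind in each genotype and for the basal covariate in the mean. For the others they are not given, nor for the fits below. There a change in members cannot be told from a change over all genes. The cause of these changes was not tested. Leaving out 1 library at a time gave 17 to 22 members in the mean, 0 to 6 in WT, 5 to 13 in OPN-null and 1 to 7 in K14-OPN, 22 to 24 by permutation, and 0 to 0 in each comparison of genotypes. K14-OPN libraries share numbers 1 and 2, whose deviations correlated at -0.451 and -0.578, but the labels do not say what a number marks and each of these pairs joins a 7SK-rich with a Lars2-rich library, so the correlations say nothing of pairing; with the numbers as a replicate block 1 member was called in WT, 11 in OPN-null, 4 in K14-OPN and 21 in the mean. For the mean response, the compared groups are all 6, so that alternative equals the planned fit. Signs reversed for members that did not pass: Gadd45a at -0.16 with library kind, Mdm4 at 0.021 and Rrm2b at 0.079 in Lars2-rich libraries, and Mdm4 at 0.019 with the fibroblast covariate. With the basal covariate they reversed for Ppm1d (-0.17), Plk3 (0.17), Fas (-0.79), Bbc3 (-1.24), Rrm2b (0.16) and Dram1 (-0.027), the last of which passed in the planned fit. Leaving out single libraries gave -0.11 to 0.086 for Rrm2b, -0.27 to 0.11 for Mdm4, -0.027 to 1.396 for Gadd45a and -0.048 to 0.64 for Bbc3. RLE in place of TMM scaling moved the median of all genes by under 0.1 log2 units. Low counts without UVB limit Gdf15, Eda2r, Dram1, Pidd1, Gtse1 and Tnfrsf10b, among others. The 2 WT noTx libraries limit what WT can show.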
